A study of Homo sapiens with 12 samples.

Results

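Cytosolic ribosomal protein genes were described across the 12 RNA libraries of the study. A row of the count tables was taken as a member when it was protein-coding and its name began with RPL or RPS followed by a number, or was RPLP0, RPLP1, RPLP2 or RPSA, with the RPS6 kinases left out. This rule took 91 of the 46350 named rows. Of these, 77 were canonical ribosomal proteins, with 46 in the large subunit and 31 in the small subunit, and 10 were paralogs such as RPL22L1. The last 4 rows carried the name only. RPS19BP1 encodes a protein that binds RPS19, and RPL17-C18orf32, RPS10-NUDT3 and RPL36A-HNRNPH2 are readthrough transcripts. FAU and RACK1, whose proteins also sit in the cytosolic ribosome, lay outside the rule and are given separately.

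The libraries form 4 groups of 3. They came from SKOV3, labelled as a cisplatin-sensitive human epithelial ovarian cancer line, and from SKOV3/DDP, a cisplatin-resistant line developed from it. Each line was left untreated or treated with paeonol (PAE), a plant phenol whose dose and time the labels do not give. The series calls the replicates biological triplicates, and the labels do not say whether they came from separate cultures, so the p-values below measure the spread between these libraries.

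Each cytosolic ribosome holds a single copy of most of its proteins, so a cell needs them in near-equal amounts, and their mRNAs are among the most abundant in dividing cells. Most of these mRNAs begin with a run of pyrimidines directly at the start of transcription, the 5′ terminal oligopyrimidine (TOP) motif. Through this motif, mTORC1 and LARP1 raise or hold back their translation and stability together. The stalk proteins RPLP0, RPLP1 and RPLP2, with RPL12 at their base, recruit elongation factors. Several paralogs, among them RPL22L1 and RPL39L, can stand in for their canonical partner in some cells.

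Counts per library were 17310359 to 18263479 in untreated SKOV3 and 14610008 to 17456185 in the other 9 libraries. The untreated SKOV3 libraries stood apart. In each of the 3, the deviation of a gene from its mean over the 12 libraries rose with the gene's GC content (Spearman's rho over 15090 genes 0.712 to 0.723), while rho was −0.353 to −0.583 in the other 9. Their TMM factors, which scale a library to the others, were 0.644 to 0.675, against 0.975 to 1.23 elsewhere, and 17951 to 18240 genes were detected in them, against 21469 to 23194. Mitochondrial rows held 1.29% to 2.44% of counts in SKOV3 with or without PAE and 3.94% to 11.3% in SKOV3/DDP. The epithelial keratins KRT8 and KRT18 were present in all groups. KRT7 averaged 3603 CPM (counts scaled to a common library total with TMM) in SKOV3, 1786 in SKOV3 with PAE, 1.22 in SKOV3/DDP and 0.605 in SKOV3/DDP with PAE, and EPCAM averaged 1.26, 6.32, 288 and 183 CPM. The leukocyte markers PTPRC and CD3E were at or near 0 in all 4, but CD14, another leukocyte marker, averaged 67.7, 32.2, 2.69 and 1.70 CPM. Of the Mullerian tumour markers, PAX8 averaged 29.7, 13.2, 4.12 and 2.44 CPM, and WT1 was at or near 0 in all 4. The part of these differences in the results below was not tested. Because group and GC trend change together, a difference that involves untreated SKOV3 and a difference in how these libraries represent GC-rich mRNA cannot be told apart. Each comparison is therefore given in 3 fits. The first uses TMM scaling alone, the second removes from each library a smooth trend on the GC content and length of the gene, and the third removes such a trend on the GC content and length of the coding sequence. The median GC content of the members was 49.8%, that of all genes tested was also 49.8%, and 46 members tested lay under 50% and 38 at or over it.

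To show the element by which these mRNAs are known, the 30 bases around the annotated start of transcription (RefSeq, GRCh38.p14) were read for members that return in the results. The first base of the transcript is base 16 of each line, and capitals mark the longest unbroken run of C and T that begins with a C within 10 bases of the start. RPL41 and RPLP1 had the highest levels per coding length, RPL22 and RPS27 are shown above their paralogs, RPL7L1 and RPS4X moved against most other members, RPS29 fell with PAE in SKOV3 in each fit, and RPL3 was called with PAE in SKOV3/DDP. The windows lie at chr12:56116618-56116647 (+) for RPL41, chr15:69452803-69452832 (+) for RPLP1, chr1:6199581-6199610 (−) for RPL22, chr3:170870181-170870210 (−) for RPL22L1, chr1:153990747-153990776 (+) for RPS27, chr15:63157463-63157492 (−) for RPS27L, chr6:42879601-42879630 (+) for RPL7L1, chrX:72277234-72277263 (−) for RPS4X, chr14:49598696-49598725 (−) for RPS29 and chr22:39319609-39319638 (−) for RPL3.
RPL41: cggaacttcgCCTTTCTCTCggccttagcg
RPLP1: gtataggcgcgagagCCCCTTTCCTCagct
RPL22: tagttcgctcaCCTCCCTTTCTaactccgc
RPL22L1: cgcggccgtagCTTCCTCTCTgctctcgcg
RPS27: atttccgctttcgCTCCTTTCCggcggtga
RPS27L: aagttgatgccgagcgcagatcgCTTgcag
RPL7L1: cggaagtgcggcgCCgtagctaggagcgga
RPS4X: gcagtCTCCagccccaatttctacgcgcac
RPS29: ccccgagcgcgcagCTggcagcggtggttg
RPL3: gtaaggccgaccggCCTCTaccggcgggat

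RPL41, RPLP1, RPL22, RPL22L1 and RPS27 held runs of 9 to 11 pyrimidines at the start. RPS27L, RPL7L1, RPS4X and RPS29 held no run of 5 or more that begins with a C so near the annotated start, although RPS4X holds pyrimidine runs that begin with a T. Among the 62 of 77 canonical members with an entry in the RefSeq promoter table, 55 (88.7%) had a run of at least 5 that begins with a C, against 33.3% of the 27305 promoters in the table. The share was 37.5% for the paralogs (3 of 8) and 78.6% for other TOP mRNAs (11 of 14), which code mainly for translation factors. In the 300 bases from 250 before the start, read on both strands, the ETS-type motif CCGGAAG stood in 33.9% of canonical members, against 10.7% of all promoters, and the TATA motif TATAAA stood in 8.06%, against 11.95%. These matches describe letters in the annotated window only.

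Not every member can be counted from short reads, because processed pseudogenes copy the mRNA. The tables list 1291 pseudogene copies of 74 members, and 698 of these copies held at least 1 count. For 4 members the copies held more counts than the gene in all 12 libraries. RPS9, a core protein of the small subunit, held 122 counts over the 12 libraries, while its copies held 162588, of which 82370 were on RPS9P4. RPS10 held 820 counts against 14518 on its copies, RPL36A 96 against 18118, and RPL17 1378 against 9475. These 4, together with RPL7A, were the canonical members with the lowest level per coding length, and their values say little about the genes themselves.

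A further 6 members differed more than 4-fold between libraries of 1 group. Among them, RPS25, a small subunit protein used by some internal ribosome entry sites, stood at 164, 2.89 and 2.73 CPM in SKOV3 with PAE and at 163, 9.84 and 89.0 CPM in untreated SKOV3/DDP. For RPS25 the 4 groups overlapped. RPS18, RPL7A, RPS3A and RPL3L also belonged to these 6. The other 75 were counted plainly. They include RPS28, which held 41336 counts against 36657 on its copies, and the copies held more than the gene in 6 libraries. The 74 plainly counted members that were tested had a median ratio of 1.66 between the highest and the lowest library of a group, with none over 3.62. Of the last 6 rows, all under 10 counts in every library, 4 had no count in any.

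**Figure D1:**
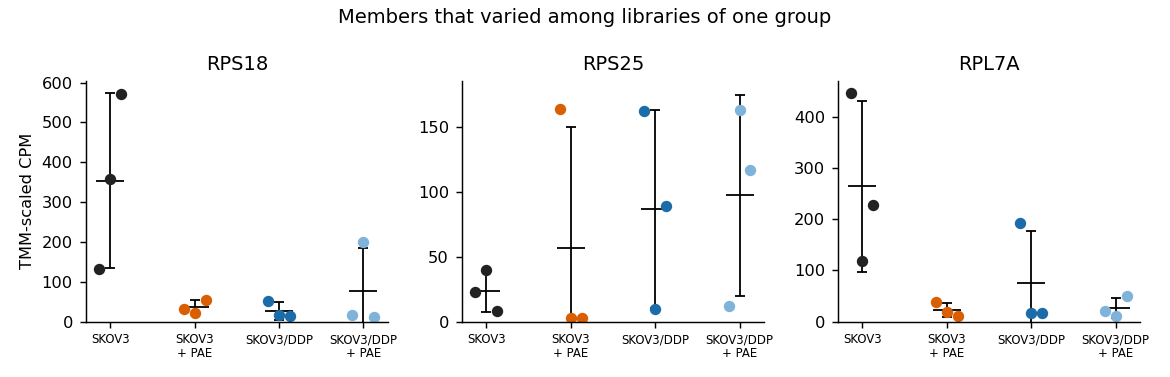
TMM-scaled CPM (linear axis from 0) of RPS18, RPS25 and RPL7A in each library, with 3 points, the mean and the SD per group. Single libraries set the group means, as in RPS25, where 1 of the 3 libraries of SKOV3 with PAE stood at 164 CPM and the others at 2.89 and 2.73.

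Levels between genes were compared per kilobase of coding sequence. Reads outside the coding sequence count too, so this measure raises genes whose coding sequence is short. RPL41 has 75 coding bases and a gene length of 676, and RPLP1 has 342 and 1174. Over the 12 libraries RPL41 held 156877 counts, fewer than the 620972 of RPLP1. By this measure RPL41, the shortest protein of the ribosome, had the highest level in every group, at 36685 ± 13516 CPM per kb (SD, n = 3) in untreated SKOV3, 5989 ± 2294 in SKOV3 with PAE, 4351 ± 441 in SKOV3/DDP and 4307 ± 409.7 in SKOV3/DDP with PAE. The stalk protein RPLP1 came second in all 4 groups, at 34619 ± 7245, 4125 ± 653, 3325 ± 453 and 3549 ± 644 CPM per kb, and within untreated SKOV3 the difference from RPL41 was smaller than the spread. RPL13 ranked 4, 3, 16 and 19 in the same order of groups, RPS2 ranked 3, 9, 20 and 27, and RPL35 ranked 5, 11, 48 and 33. RPL13, RPS2 and RPL35 were thus among the first 5 in untreated SKOV3 and no higher than rank 16 in SKOV3/DDP.

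Members were also more unequal in untreated SKOV3. Over the 68 canonical members counted plainly, the level at the 90th percentile was 32.0 times that at the 10th percentile in untreated SKOV3, 3.62 times in SKOV3 with PAE, 2.47 times in SKOV3/DDP and 2.91 times in SKOV3/DDP with PAE. The 5 members with the highest level per kb held 33.5%, 22.8%, 15.7% and 17.5% of the summed level. The lowest of the 68 in untreated SKOV3 was RPL14, at 92.2 CPM per kb, while the median was 4001.

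**Figure D2:**
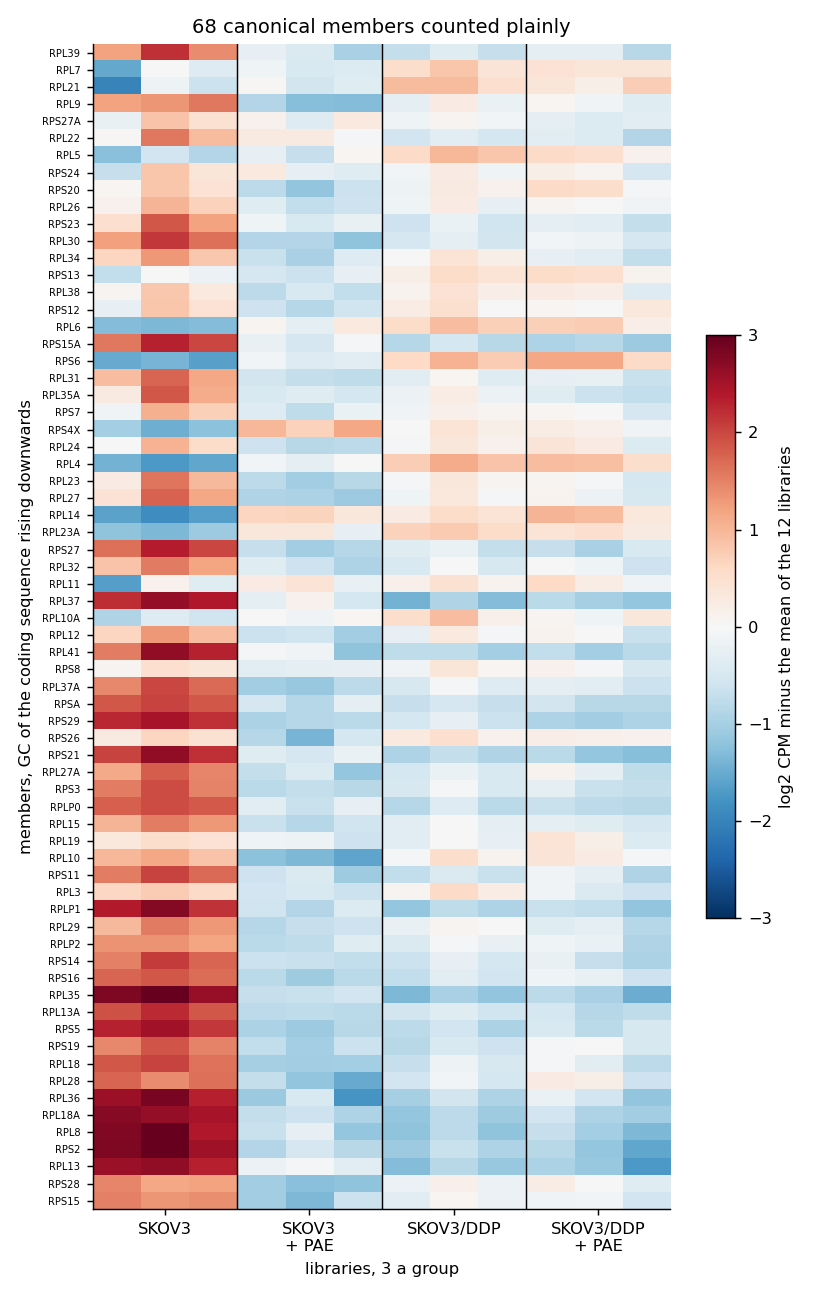
Log2 TMM-scaled CPM of 68 canonical members counted plainly, each row minus its own mean over the 12 libraries, with the colour scale ending at −3 and 3; rows run from low GC content of the coding sequence (top) to high (bottom), and the 4 groups of 3 libraries run from left to right. The 3 untreated SKOV3 libraries are high for most GC-rich rows and low for RPL4, RPL6, RPL14, RPL23A, RPS4X and RPS6, while the other 9 libraries differ less from each other.

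The members together took 10.6%, 13.6% and 10.9% of the counts on named genes in untreated SKOV3 (11.7% ± 1.64, SD, n = 3). The share was 4.71%, 4.51% and 4.73% with PAE (4.65% ± 0.119), 4.79%, 5.43% and 5.00% in untreated SKOV3/DDP (5.07% ± 0.326), and 6.07%, 5.71% and 4.31% in SKOV3/DDP with PAE (5.36% ± 0.930). Untreated SKOV3 lay above all other libraries, SKOV3 with PAE lay just below untreated SKOV3/DDP, and SKOV3/DDP with PAE spanned both. The excess lay in the GC-rich members. Members with at least 50% GC took 8.77% ± 1.07 in untreated SKOV3 and 2.54% ± 0.023, 2.53% ± 0.183 and 2.72% ± 0.503 in the other groups, while members under 50% took 2.93% ± 0.670, 2.11% ± 0.142, 2.54% ± 0.143 and 2.65% ± 0.429. RPS2, RPLP0, RPL13, RPLP1 and RPL8 alone took 4.26% ± 0.631 in untreated SKOV3 and 0.991% ± 0.025, 0.651% ± 0.059 and 0.697% ± 0.136 in the other groups. These members were picked after their values were seen, so their share is no separate evidence of the excess. Whether cells with high levels became fewer or each cell held less of this RNA cannot be told apart in bulk samples. A share also falls when other RNA rises, and mitochondrial rows, which took more of the SKOV3/DDP libraries, raised the share of the members in untreated SKOV3/DDP to 5.63% when left out.

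**Figure D3:**
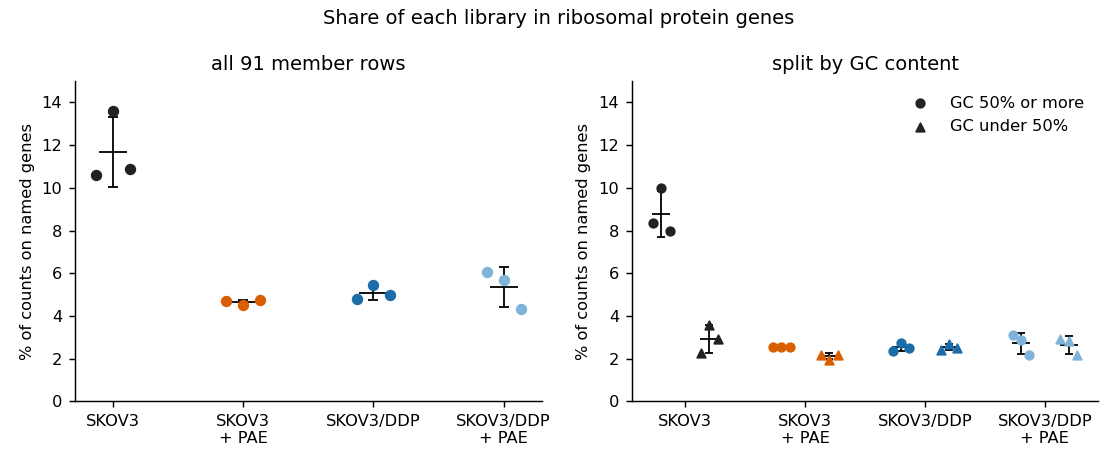
Percent of the counts on named genes that fell on the 91 member rows (left) and on members with at least 50% GC (circles) or under 50% GC (triangles) (right), per library, with mean and SD of the 3 libraries of each group. Untreated SKOV3 stands at 10.6% to 13.6% and the other 9 libraries at 4.31% to 6.07%, and the gap is in the circles.

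PAE in SKOV3 was tested with edgeR's quasi-likelihood test in a fit of all 12 libraries, with Benjamini-Hochberg adjustment over all 17133 genes tested and a call at an adjusted p under 0.05. Of the 84 members tested, 62 fell with PAE (32.7% of all genes tested did) and 10 rose (42.6% of all genes, and 75.3% changed in either direction). The median log2 fold change of the members was −1.96, against 0.48 for all genes. With the trend on gene GC and length removed, 46 fell and 15 rose, at a median of −0.94, where 21.1% and 25.8% of all genes were called. With the trend on the coding sequence removed, 63 fell and 5 rose, at a median of −1.45, where 27.6% and 26.8% were called. Both subunits moved alike in the first fit, with 37 of 51 large subunit rows lower (median −1.92) and 25 of 33 small subunit rows lower (median −2.38). GC content split them. Members with at least 50% GC had medians of −2.57, −0.23 and −0.97 in the 3 fits, and members under 50% had −1.28, −1.64 and −1.96. The call was lower in all 3 fits for 37 members and higher in all 3 for RPL23A, RPL7L1 and RPS4X, while 13 were called in opposite directions between fits. Agreement between the fits was counted for the members only, not over all genes.

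RPS29, a zinc-binding protein of the small subunit, had one of the 5 largest decreases among members called lower both with TMM and with the gene GC trend removed. It stood at 1217, 1414 and 1163 CPM in untreated SKOV3, at 130.4, 141 and 144 CPM with PAE, at 177, 213 and 163 CPM in SKOV3/DDP and at 133, 124 and 134 CPM in SKOV3/DDP with PAE. Every untreated SKOV3 library was higher than the other 9. The log2 fold change with PAE in SKOV3 was −3.19 (SE 0.20, edgeR adjusted p = 1.1e-08), −5.18 with the gene GC trend removed and −1.29 with the coding GC trend removed. In the files the gene length of RPS29 is 7472 bases, while its coding sequence is 168 bases, and the second fit uses the former. RPL37, another short zinc-binding protein, has 7573 and 291 bases, and its log2 fold changes were −2.63, −5.19 and −2.07.

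The other 4 of these were rows with a limit on their value. RPS19BP1, no ribosomal protein, stood at 591, 654 and 586 CPM untreated and at 40.5, 50.8 and 40.2 CPM with PAE, a log2 fold change of −3.80 (SE 0.24, edgeR adjusted p = 1.2e-08) that was −0.78 and −0.73 in the other fits. RPS10 changed by −4.09 (SE 0.62), with most of its reads on copies, and RPS18 by −3.30 (SE 0.93), with 132, 358 and 571 CPM in the untreated libraries. RPL39L, a paralog known from testis and some tumours, had 402, 865 and 306 counts untreated and 54, 139 and 84 with PAE, a log2 fold change of −3.21.

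RPL7L1, a paralog of RPL7 with a role in ribosome assembly, rose most. It stood at 18.2, 12.3 and 14.7 CPM in untreated SKOV3 and at 113, 119 and 144 CPM with PAE, and at 184 to 234 CPM in the 6 SKOV3/DDP libraries. The untreated SKOV3 libraries were below all others. Its log2 fold change was 3.06 (SE 0.22, edgeR adjusted p = 1.7e-08) and 1.35 and 1.43 in the other fits, called in each. RPS4X, a small subunit protein encoded on the X chromosome, stood at 367, 269.6 and 318 CPM untreated and at 1501, 1216 and 1663 CPM with PAE, above all 9 other libraries, which reached 991 CPM. Its log2 fold change was 2.20 (SE 0.21, edgeR adjusted p = 2.2e-07), 1.66 and 0.86. RPL23A, which lies at the exit of the peptide tunnel, rose by 1.39 (SE 0.21, edgeR adjusted p = 1.8e-05), with 2.02 and 0.95 in the other fits. RPL10A rose by 0.60 (SE 0.23, edgeR adjusted p = 0.027), but lost its call without any of 4 libraries (SKOV3 replicate 1 or 3, SKOV3_PAE replicate 1 or 3), ranged from 0.47 to 0.73 over the 6 such fits, and was not called with the coding GC trend removed (0.34, adjusted p = 0.17).

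**Figure D4:**
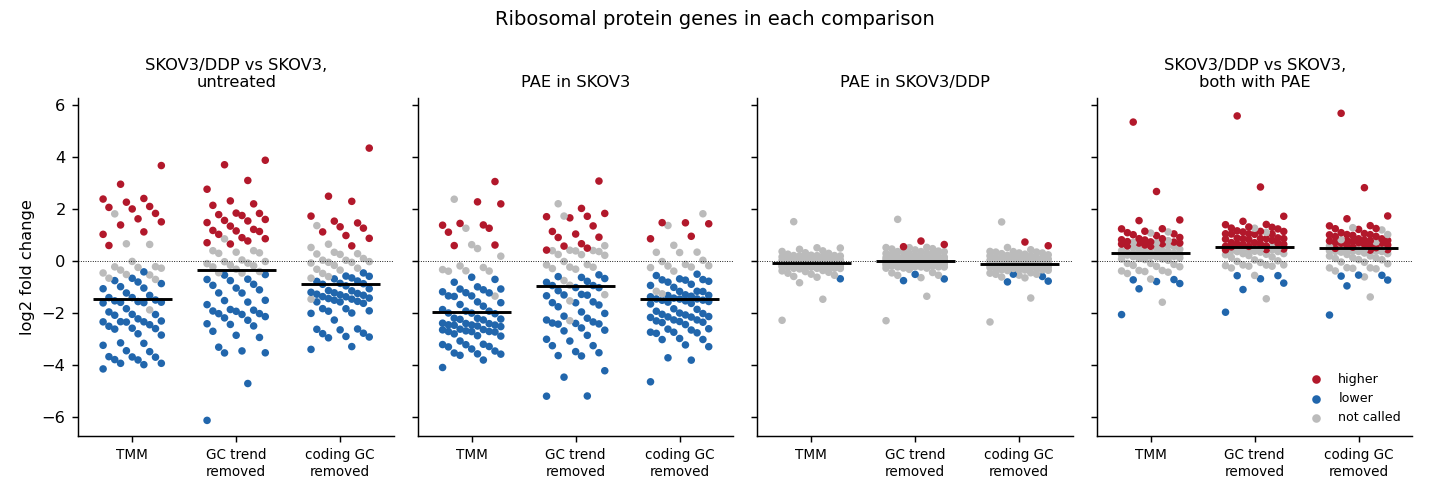
Log2 fold change of each member tested in 4 comparisons (panels), in the TMM fit, with the gene GC and length trend removed, and with the coding GC and length trend removed; red is higher, blue is lower and grey is not called at an adjusted p under 0.05, and the bar is the median. RPL39L, at 0 in both SKOV3/DDP groups, is drawn for PAE in SKOV3 only. Medians move from −1.45 to −0.36 and −0.86 between the untreated lines and from −1.96 to −0.94 and −1.45 for PAE in SKOV3, and lie near 0 for PAE in SKOV3/DDP in each fit.

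In SKOV3/DDP, few members passed the test with PAE. In the same fit, 1 of 84 fell and 0 rose, where 14.7% and 11.8% of all genes tested were called, and the median log2 fold change was −0.08 against 0.00 for all genes. At an unadjusted p under 0.05 there were 6, DESeq2 called 2, and 6 were called with either GC trend removed (3 higher and 3 lower for the gene trend, where 15.7% and 16.8% of all genes were, and 2 and 4 for the coding trend, where 17% and 17.9% were). The median SE was 0.23. For 69 of 83 members, and for 68 of 73 counted plainly, the 95% interval of the change lay within 2-fold in both directions, so a change of more than 2-fold lay outside the interval for these members. Over the members counted plainly the log2 fold change ranged from −0.68 to 0.51.

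The member called was RPL3, a core protein near the peptidyl transferase centre. It stood at 1681, 2352 and 1866 CPM in untreated SKOV3/DDP and at 1479, 1169 and 1036 CPM with PAE, with no overlap. Its log2 fold change was −0.68 (SE 0.20, edgeR adjusted p = 0.024), −0.51 and −0.59 in the other fits, each called. It lost its call without any of 4 libraries (SKOV3/DDP replicate 2 or 3, SKOV3/DDP_PAE replicate 2 or 3), with a range of −0.80 to −0.53 over the 6 such fits. RPL22L1 stood at 169.7, 175 and 192 CPM untreated and at 136, 135 and 85.6 CPM with PAE, again with no overlap, but its log2 fold change of −0.59 (SE 0.24, edgeR adjusted p = 0.080) missed the threshold with TMM alone and was called in the other fits (−0.75 and −0.80). RPL22L1 lies outside the rule for named genes of this comparison and is named as a paralog.

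The effect of PAE differed between the lines for 66 of 84 members by the interaction term of the same fit, where 62.9% of all genes tested were called. It was higher in SKOV3/DDP than in SKOV3 for 56 (25.5% of all genes) and lower for 10 (37.4%), with a median difference of 1.79 on the log2 scale, against −0.62 for all genes. With the gene GC trend removed 42 were higher and 9 lower (median 0.96, where 18.7% and 21.6% of all genes were called), and with the coding GC trend removed 55 were higher and 6 lower (median 1.41, where 22.8% and 22.5% were called). Among members called in the same direction with the gene GC trend removed, the largest differences were RPS18 (4.81, SE 1.27, edgeR adjusted p = 0.0039), RPS19BP1 (4.31) and RPS10 (4.08) upwards, all with a limit given above, and RPL7L1 (−3.04, SE 0.29, edgeR adjusted p = 6.4e-07), RPS4X (−2.31) and RPL23A (−1.66) downwards. The RPS18 difference ranged from 2.38 to 5.75 when single libraries were left out. This comparison uses the same untreated SKOV3 libraries as the test of PAE in SKOV3.

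Between the untreated lines, 15323 genes were tested in a separate fit of these 6 libraries, and 84.7% of them were called in either direction. Of 82 members tested, 52 were lower in SKOV3/DDP (38.5% of all genes tested) and 15 higher (46.1%), with a median log2 fold change of −1.45 against 0.42 for all genes. With the gene GC trend removed, 38 were lower and 26 higher (median −0.36, where 32.5% and 35.3% of all genes were called), and with the coding GC trend removed, 48 were lower and 12 higher (median −0.86, where 35.8% and 34.4% were called). Again the members with at least 50% GC had the lower median in the first fit, −2.33 against −0.70. The order turned in the second, −0.02 against −1.10, and in the third, −0.57 against −1.13. The call was lower in all 3 fits for 32 members and higher for 7, and 11 were called in opposite directions, again counted for the members only. Untreated SKOV3 is the control of the PAE test in SKOV3 too, so the 2 comparisons share these libraries and their values are not separate evidence. RPL39L, at 0 counts in all 3 SKOV3/DDP libraries, was at least 744-fold lower than in SKOV3, taking 3 counts over the group as the floor. Set at that bound, RPL39L stays below the median of the members.

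RPL8, a GC-rich large subunit protein, was among the 5 members with the largest decrease of those called lower both with TMM and with the gene GC trend removed. It stood at 11232, 14634 and 8589 CPM in SKOV3 and at 703, 953 and 713 CPM in SKOV3/DDP, with no overlap, and its log2 fold change was −3.93 (SE 0.26, edgeR adjusted p = 2.7e-06), −0.71 with the gene GC trend removed and −1.92 with the coding GC trend removed. With PAE in both lines RPL8 overlapped, at 1031, 1384 and 729 CPM against 1005, 803 and 642 CPM. RPL35 had a larger decrease than RPL8 with TMM (−4.14) but was not called with the gene GC trend removed (−0.18, edgeR adjusted p = 0.39). The others of the 5 were RPL39L, given above by its bound, RPS10 (−3.98), RPS19BP1 (−3.93) and RPS18 (−3.80).

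Of the 15 members higher in SKOV3/DDP with TMM, 12 were also called higher with the gene GC trend removed, and among these, at 10 CPM or more, RPL7L1, RPL22L1, RPL4, RPS6 and RPL6 had the largest values. RPS3A (2.38) and RPL14 (2.06) were not called with the gene GC trend removed (0.85 and 0.32). RPL4, whose loop lines the peptide tunnel, stood at 422, 344 and 383 CPM in SKOV3 and at 1884, 2435 and 2027 CPM in SKOV3/DDP. Its log2 fold change was 2.41 (SE 0.17, edgeR adjusted p = 3.4e-06), 1.48 and 0.98. RPS6, the protein phosphorylated by the S6 kinases, stood at 196, 211 and 179 CPM against 845, 1142 and 946 CPM, with 2.26 (edgeR adjusted p = 5.5e-06), 1.56 and 0.88, and no library of either gene crossed into the other group. RPL6 had 2.003 and 0.77, and 0.34 with the coding GC trend removed, where it was no longer called (adjusted p = 0.080). RPL7L1 differed by 3.67 (SE 0.20, edgeR adjusted p = 1.2e-06), 2.14 and 2.30.

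With PAE in both lines, the groups compared hold no untreated SKOV3 library. The untreated SKOV3 libraries were still part of the fit, and so of its filter, its scaling and its estimate of spread. This comparison was not fitted without them. Of 84 members, 26 were higher in SKOV3/DDP (27.5% of all genes tested) and 7 lower (27.1%, and 54.5% in either direction), with a median log2 fold change of 0.32 against 0.06 for all genes. With the gene GC trend removed 42 were higher and 7 lower (median 0.52, where 30.7% and 29.3% of all genes were called), and with the coding GC trend removed 38 were higher and 7 lower (median 0.49, where 31.3% and 29.6% were called). No member was called in opposite directions between fits, 26 were higher in all 3 and 7 lower in all 3, again counted for the members only. Members under and over 50% GC had medians of 0.43 and 0.25 in the first fit, 0.55 and 0.49 in the second and 0.61 and 0.41 in the third. The number called in the first fit ranged from 23 to 35 when single libraries were left out.

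The 5 highest among members with a level of at least 10 CPM were RPL22L1, RPL10, RPS27L, RPS20 and RPS6. RPS9, at 5.34, lay above them, but stayed under 2 CPM in each library, with most of its reads on copies. RPL10, the protein whose loading completes the large subunit, stood at 449, 414 and 348 CPM in SKOV3 with PAE and at 1371, 1250.2 and 1004 CPM in SKOV3/DDP with PAE, and its log2 fold change was 1.58 (SE 0.22, edgeR adjusted p = 2.6e-05), 1.72 and 1.73. RPS20, a small subunit protein, stood at 349.9, 264 and 385 CPM against 907, 878 and 581 CPM, with 1.24 (edgeR adjusted p = 0.00073), 1.40 and 1.36. RPS6 differed by 1.24 (edgeR adjusted p = 0.0002), 1.41 and 1.35. None of these 3 overlapped between the groups, and their values moved little with the GC trend.

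The 5 lowest among members with a level of at least 10 CPM were RPL13, RPS4X, RPL37, RPS21 and RPS15A. RPL13 stood at 1971, 2154 and 1795 CPM in SKOV3 with PAE and at 1150.1, 1012 and 669.6 CPM in SKOV3/DDP with PAE, with −1.06 (SE 0.23, edgeR adjusted p = 0.0012), −1.09 and −0.95. RPS4X stood at 1501, 1216 and 1663 CPM against 876, 833 and 702 CPM, with −0.86 (edgeR adjusted p = 0.0026), −0.68 and −0.73. RPL37, RPS21 and RPS15A differed by −0.79, −0.72 and −0.71, and RPS15A lost its call without SKOV3_PAE replicate 3. RPL13, RPS4X and the other members named here did not overlap between the groups.

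The stalk showed how far the fits part within one structure. RPLP0, the anchor of the stalk, stood at 10126, 11349 and 10440.0 CPM in untreated SKOV3, at 2349.8, 1843 and 2469 CPM with PAE, at 1618, 2223 and 1680.1 CPM in SKOV3/DDP and at 1846, 1705 and 1634 CPM in SKOV3/DDP with PAE. Untreated SKOV3 was highest and the other 9 libraries lay close together. With PAE in SKOV3, RPLP0 changed by −2.26 (SE 0.21, edgeR adjusted p = 1.4e-07), −0.53 and −2.01 in the 3 fits, and RPLP1 by −3.07, −2.38 and −1.45. RPLP2, the partner of RPLP1, changed by −1.92 (edgeR adjusted p = 2.5e-06) with TMM alone and by 1.83 with the gene GC trend removed, and with the coding GC trend removed its value of 0.031 (edgeR adjusted p = 0.91) was not called. RPL12 changed by −1.73, 0.58 and −1.58, called in each fit. The direction of RPLP2 and RPL12 thus turned with the scaling, while RPLP0 and RPLP1 were lower in each fit. Of the 4, none was called for PAE in SKOV3/DDP in any fit, and none between the lines with PAE in the first.

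Some paralogs differed between the lines with and without PAE. RPL22L1 stood at 17.1, 26.3 and 22.8 CPM in untreated SKOV3, 21.0, 14.2 and 20.7 CPM in SKOV3 with PAE, 169.7, 175 and 192 CPM in SKOV3/DDP and 136, 135 and 85.6 CPM in SKOV3/DDP with PAE, so that all 6 SKOV3/DDP libraries lay above all 6 of SKOV3. Its partner RPL22 stood at 223, 656 and 421 CPM, 263, 265 and 213 CPM, 147, 175 and 151 CPM, and 175, 165 and 119 CPM in the same order. The log2 ratio of RPL22L1 to RPL22 within a library, which needs no scaling, was −4.18 ± 0.47 (SD, n = 3), −3.74 ± 0.44, 0.18 ± 0.17 and −0.38 ± 0.10. Between the lines it differed by 4.36 untreated (2.89 with the gene GC trend removed) and by 3.37 with PAE (3.36), and with PAE in SKOV3/DDP by −0.56 (−0.72), each with no overlap. The exact 2-sided permutation test of 3 libraries against 3 cannot go below p = 0.1, which it gave for each of these (adjusted p = 0.177 over 23 ratio tests), so no ratio could pass. By edgeR, RPL22L1 was higher in SKOV3/DDP by 2.95 untreated (SE 0.21, adjusted p = 4.1e-06) and by 2.67 with PAE (SE 0.25, adjusted p = 4.8e-07), and it stayed called in both other fits, at 0.90 and 1.47 untreated and 2.85 and 2.82 with PAE. Its change with PAE in SKOV3 was −0.24 with TMM alone (adjusted p = 0.37) and −2.68 and −2.16 in the others, so a direction for that comparison depends on the fit.

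RPL39L was listed at 402, 865 and 306 counts in untreated SKOV3 and at 54, 139 and 84 with PAE, and at 0 in all 6 SKOV3/DDP libraries, while its partner RPL39 stood at 231 to 339.9 CPM in these. With PAE in both lines, RPL39L was at least 97.2-fold lower in SKOV3/DDP. The log2 ratio of RPL39L to RPL39 was −4.94 ± 0.41 in SKOV3 and −5.91 ± 0.74 with PAE. RPS27L, a target of p53, stood at 54.1, 49.2 and 58.0 CPM in SKOV3 with PAE and at 158, 194 and 122 CPM in SKOV3/DDP with PAE, and differed there by 1.56 (SE 0.27, edgeR adjusted p = 0.0002), 1.53 and 1.63 in the 3 fits. Its ratio to RPS27 rose from −4.42 ± 0.26 in SKOV3 to −2.65 ± 0.15 with PAE as counted, a difference of 1.76 that turned to −2.98 with the gene GC trend removed.

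For RPL7L1 and RPL7, the log2 ratio was −4.19 ± 1.08 in untreated SKOV3, −1.44 ± 0.32 with PAE, −1.66 ± 0.20 in SKOV3/DDP and −1.47 ± 0.20 in SKOV3/DDP with PAE, and it differed by −0.021 between the lines with PAE. RPL26L1 to RPL26 was −4.04 ± 0.11, −3.78 ± 0.16, −4.32 ± 0.40 and −3.87 ± 0.15. RPL3L, the muscle paralog of RPL3, held 1 to 27 counts a library and varied up to 6.24-fold within a group. It was called lower in SKOV3/DDP than in SKOV3 with PAE in both (−2.05, SE 0.67, edgeR adjusted p = 0.017, and −1.96 and −2.07 in the other fits), although the libraries overlapped. RPL36AL held 1 to 10 counts and was not tested.

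**Figure D5:**
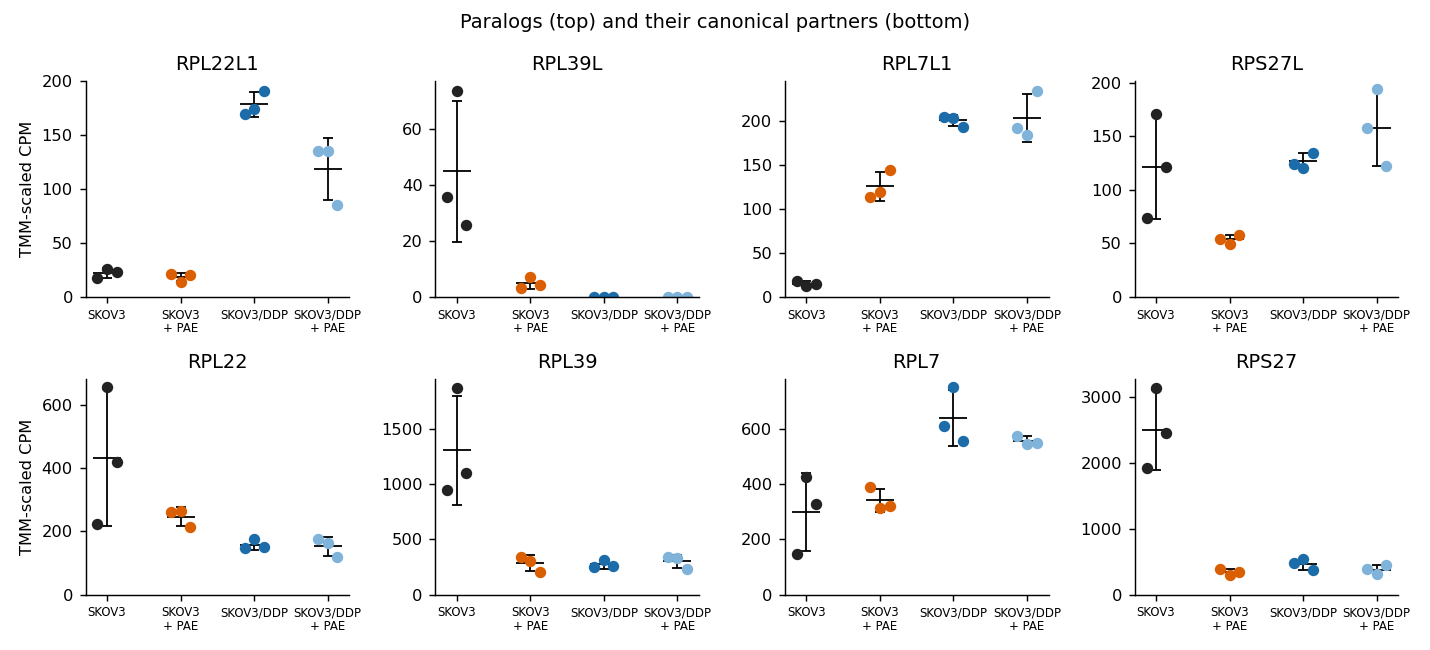
TMM-scaled CPM (linear axes from 0, scales differ) of 4 paralogs (top) and their canonical partners (bottom) in each library, with mean and SD of the 3 libraries of a group. RPL22L1 lies at 14.2 to 26.3 CPM in SKOV3 and at 85.6 to 192 CPM in SKOV3/DDP with or without PAE, RPL39L is at 0 in SKOV3/DDP, and RPL7L1 is low only in untreated SKOV3 among the 4 groups.

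The other genes of the ribosome were read from their lists in the same fits. FAU, whose product carries RPS30, stood at 2119, 2831 and 2083 CPM in untreated SKOV3 and at 199, 207 and 245 CPM with PAE. The groups did not overlap. Both FAU and RACK1 fell with PAE in SKOV3 (32.7% of all genes did), with log2 fold changes of −3.43 for FAU and −0.88 for RACK1. With the gene GC trend removed FAU was no longer called (−0.08) and RACK1 was called higher (0.99), and with the coding GC trend removed FAU was lower (−0.76) and RACK1 was not called (−0.40), so neither gene kept its call in all 3 fits. For PAE in SKOV3/DDP neither was called with TMM alone (26.4% of all genes were), and FAU was called higher in the other fits (0.81 and 0.71).

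Other TOP mRNAs were split in both directions. Of 23 tested, which include FAU and RACK1, 12 rose and 8 fell with PAE in SKOV3 (median 0.62, all genes 0.48), where 42.6% and 32.7% of all genes did. Removing the gene GC trend left 9 that rose and 7 that fell (median −0.08, where 25.8% and 21.1% of all genes did), and with the coding GC trend removed 4 rose and 9 fell (median −0.40, where 26.8% and 27.6% did). The difference from the members was not tested. EEF1A1, the factor that brings aminoacyl-tRNA to the ribosome, stood at 1157, 533 and 736 CPM in untreated SKOV3 and at 5526, 5186 and 5295 CPM with PAE. In the other direction, EEF2 averaged 7341 CPM untreated and 1230 with PAE, and EEF1G 3146 and 846. These factors were named after their values were seen, and their values with a GC trend removed are not given here. With PAE in both lines, 8 of the 23 were higher in SKOV3/DDP and 2 lower (27.5% and 27.1% of all genes), at a median of 0.40, which lay near the 0.32 of the members. TPT1, a growth-related TOP mRNA, was 1.86 higher, VIM, the intermediate filament protein vimentin, 1.47 higher, and the splicing factor HNRNPA1 1.61 lower on the log2 scale, though VIM stayed under 10 CPM in all libraries. For PAE in SKOV3/DDP 1 of the 23, VIM, fell, by 2.16.

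Of 53 assembly factors of the ribosome, 33 rose and 19 fell with PAE in SKOV3 (median 1.84), where 42.6% and 32.7% of all genes did. With the gene GC trend removed 25 were higher and 8 lower (median 0.52, all genes 25.8% and 21.1%), and with the coding GC trend removed 13 were higher and 18 lower (median −0.16, all genes 26.8% and 27.6%), so the balance turned with the fit. Those with the largest change called in the first 2 fits were NOC4L (−5.74), BRIX1 (5.06) and RIOK2 (4.54), all of which act on the maturing subunits. NOC4L ranged from 1.7 to 46.5 CPM within untreated SKOV3 and stood at 0.52, 0.36 and 0.32 CPM with PAE. BRIX1 stood at 0.18, 0.17 and 0.42 CPM in untreated SKOV3, so the changes of NOC4L and BRIX1 rest on a group near 0. In SKOV3/DDP, 5 rose with PAE and 1 fell (11.8% and 14.7% of all genes did), and between the lines with PAE 10 were higher and 11 lower (median −0.05, all genes 27.5% and 27.1%). RNA polymerase I and its factors, which make ribosomal RNA, gave 8 higher and 7 lower of 19 for PAE in SKOV3, near the shares of all genes, and 6 and 6 with the gene GC trend removed and 3 and 8 with the coding GC trend removed. They gave 3 higher and 0 lower in SKOV3/DDP, and 5 higher and 2 lower between the lines with PAE.

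Regulators of ribosomal protein mRNA and of free subunits gave 6 higher and 4 lower of 14 for PAE in SKOV3, again near the shares of all genes (42.6% and 32.7%). In SKOV3/DDP they gave 3 higher and 0 lower, where 11.8% and 14.7% of all genes were called. MDM2, the p53 ligase that free RPL5 and RPL11 can bind, stood at 78.1, 67.98 and 78.8 CPM in SKOV3 with PAE and at 285, 392 and 374 CPM in SKOV3/DDP with PAE, 2.23 higher on the log2 scale. MYC, which drives transcription of ribosome genes, was 1.54 lower there, at 19.4, 25.7 and 27.9 CPM against 109.8, 62.8 and 39.8 CPM. Neither gene overlapped between these groups.

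Mitochondrial ribosomal proteins, which serve a separate ribosome, were listed for contrast. Of 77 tested, 45 fell and 21 rose with PAE in SKOV3 (median −1.04, where 32.7% and 42.6% of all genes did). With the gene GC trend removed, 38 fell and 12 rose (median −0.55, where 21.1% and 25.8% of all genes did). With the coding GC trend removed, 47 fell and 9 rose (median −0.72, where 27.6% and 26.8% did). The untreated lines gave 48 lower and 21 higher (38.5% and 46.1% of all genes), and the medians in the 3 fits were −1.44, −0.54 and −0.62, beside −1.45, −0.36 and −0.86 for the cytosolic members. With PAE in both lines 9 were higher and 17 lower (median 0.02, all genes 27.5% and 27.1%), while the cytosolic members gave 26 and 7. For PAE in SKOV3/DDP 1 rose and 6 fell (11.8% and 14.7% of all genes).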

How the data were processed

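Raw counts were deposited by the authors for 12 libraries, as whole numbers per gene with coordinates on GRCh38 and no normalization. Poly-A RNA was taken with poly-T beads and made into libraries with the NEBNext Ultra kit, which does not mark strand. The submitters' processing notes name HISAT2 2.0.5, StringTie 1.3.3b, DESeq2 and edgeR, and the counting program and strand setting are not given in the sources used here. Reads of overlapping genes and of near-identical copies can therefore be split in ways the files do not show. The 869 loci without a gene name held 0.126% to 0.678% of counts and were left out.

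Counts were analysed in R 4.3.3 with edgeR 4.0.16, using filterByExpr, TMM factors and quasi-likelihood F tests, with p-values adjusted (Benjamini-Hochberg) over all rows tested and a threshold of 0.05. The untreated lines were fitted alone (6 libraries) and all other comparisons in 1 fit of 12 libraries with 4 groups. Each SE is log2 fold change over the root of F. A trend of each library on GC content (GENCODE 29) and gene length was removed with splines of 5 degrees of freedom, fitted where mean log2 CPM reached 2 and passed on as offsets, and covered 88.1% of the genes tested. The same with coding sequence was added after the data were seen, because gene lengths in the files exceed the mRNA of some members, as were the fits that combine it or the gene trend with other settings. Log2 ratios of paralogs had 0.5 added to each count. A member was called plainly counted when it had at least 10 counts in some library, held more counts than its pseudogene copies in some library and varied at most 4-fold within each group, the last not asked of RPL36AL, whose counts were very low. The 12-library edgeR fit of PAE in SKOV3 was run on simulated counts, with and without removal of the gene GC trend. The other fits and comparisons were not. GC content was matched by Entrez gene ID, and promoters were matched to RefSeq by symbol.

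The members, the gene lists and the comparisons were chosen with earlier results of these data known. Named in each comparison were the 5 members of each direction (3 for the difference between the lines) with the largest change called both with TMM and with the gene GC trend removed, at 10 CPM or more on average in the higher group, with the highest and lowest members per coding length, the stalk, the paralogs and rows that match by name only. From the other lists, up to 3 genes called in both fits were named. RPL37, EEF1A1, EEF2 and EEF1G in SKOV3, RPL22L1 in SKOV3/DDP and the members of the share of 5 were named after their values were seen. Some genes are not reported here.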

Additional observations from a re-analysis of the deposited data

Results flagged for a closer look

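The effect of PAE on the members differed between the lines by the interaction term of the edgeR fit. The term was called for 66 of 84 members, where 62.9% of all genes tested were called. Among those called in the same direction with the gene GC trend removed, the largest differences, as the effect in SKOV3/DDP minus that in SKOV3 on the log2 scale, were RPS18 (4.81), RPS19BP1 (4.31) and RPS10 (4.08) in one direction and RPL7L1 (−3.04), RPS4X (−2.31) and RPL23A (−1.66) in the other. Each of these differences includes the untreated SKOV3 libraries, whose GC trend sets them apart from the other 9. With the gene GC trend removed the 6 differences were 4.61, 1.55, 2.49, −1.38, −1.75 and −2.21 in the same order, and with the coding GC trend removed 4.24, 1.46, 3.00, −1.48, −0.998 and −1.27. RPS18 varied 18.8-fold within a group and RPS10 held fewer counts than its pseudogene copies, and the part of either in its value was not tested.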

How the results depend on the processing

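Numbers of members called and medians held their direction under most alternatives (DESeq2, no filter, at least 10 counts in each library, each line alone, pseudogene copies added, protein-coding genes only, members counted plainly only). The cause of the changes listed here was not tested beyond the trend or scaling that defines each alternative. The median log2 fold change between the untreated lines was −0.36 with the gene GC trend removed, −0.86 with the coding GC trend removed, −0.71 with scaling by library size and −0.26 with the replicate block and the GC trend removed. For PAE in SKOV3 it was −0.94, −1.45, −1.07 and −0.92, and −0.88 in the line alone with the GC trend removed. For the difference between the lines it was 0.96 with the gene GC trend, 1.09 by library size and 0.95 with the block and the GC trend. Scaling by library size moved the median of all genes to 1.16 between the untreated lines, 1.35 for PAE in SKOV3 and −1.30 for the difference between the lines. In this order it gave 22 higher and 41 lower members, 16 higher and 48 lower, and 44 higher and 14 lower. The shares of all genes called under this scaling are not given here. The share of higher among called members went from 22.4% to 34.9% between the untreated lines and from 13.9% to 25% for PAE in SKOV3.

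For PAE in SKOV3/DDP the number called was 6 with either GC trend removed and with the block and the GC trend, 9 in the line alone with the GC trend removed, 3 without a filter, and 2 by library size, DESeq2, at least 10 counts, copies added, protein-coding genes only and the line alone. Of all genes, 26.4% were called with TMM alone. Apart from the fits with either GC trend removed, given above, the shares of all genes under these settings are not given here. The mean share of SKOV3 with PAE was 4.89% with copies added, and that of SKOV3/DDP 5.63% without mitochondrial rows.

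Directions turned with the gene GC trend removed for the ratio of RPL22L1 to RPL22 with PAE in SKOV3 (−1.20) and of RPS27L to RPS27 between the untreated lines (−2.22) and with PAE in SKOV3 (−2.98). In the order gene GC trend, block with GC trend and, where named, coding GC trend or line alone with GC trend, RPLP2 turned to 2.20, 2.23 and 0.58 (coding) between the untreated lines, to 1.83, 1.83, 0.031 (coding) and 1.95 (line alone) with PAE in SKOV3, and to −1.67, −1.67 and −0.13 (coding) for the difference between the lines. RPL12 turned to 1.54 and 1.53, to 0.58, 0.57 and 0.66 (line alone), and to −0.58 and −0.57. RPL3 turned to 1.79, 1.78 and 0.32 (library size), to 0.91, 0.91 and 0.89 (line alone), and to −1.42 and −1.42. RPL22L1 turned to 0.64 by library size with PAE in SKOV3 and to 1.93, 1.91 and 1.36 (coding) for the difference between the lines, and RPS27L to 0.75 by library size between the untreated lines.

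With single libraries left out, the numbers called ranged from 64 to 71 between the untreated lines, 67 to 72 for PAE in SKOV3, 0 to 3 for PAE in SKOV3/DDP, 23 to 35 between the lines with PAE and 62 to 68 for the difference between the lines. With all libraries, 84.7%, 75.3%, 26.4%, 54.5% and 62.9% of all genes were called in this order. The shares of all genes without single libraries are not given here. The medians of the members ranged from −1.56 to −1.26, −2.14 to −1.77, −0.14 to 0.05, 0.23 to 0.49 and 1.57 to 1.90. With the GC trend removed as well, the median between the untreated lines ranged from −0.60 to 0.037. The log2 ratio between the lines with PAE ranged from −0.17 to 0.0094 for RPL26L1 to RPL26 and from −0.19 to 0.12 for RPL7L1 to RPL7.

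Replicate numbers are shared by the groups, but libraries with the same number did not deviate together (correlations −0.151 to 0.111, median 0.0104). With the replicate number as a block, 70, 72, 1, 35 and 66 members were called in the order above, and the shares of all genes called with it are not given. The block is given here only.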
